A study of Mus musculus with 2 samples.

Results

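The Kruppel-like factors are transcription factors that carry a run of zinc fingers at their carboxyl end, and 10 of their genes are described here in effector regulatory T cells of mice. The members were chosen by symbol (Klf2, Klf3, Klf4, Klf6, Klf7, Klf9, Klf10, Klf11, Klf12 and Klf13), and each matched 1 row among the 46398 gene symbols of the deposited values. Poly(A) RNA had been sequenced from cells sorted as positive for CD4, CD25 and a green fluorescent protein reporter of Foxp3, with high CD44 as a mark of effector cells. A library each was made from Nrn1+/- cells (the heterozygous library) and from Nrn1-/- cells (the null library), 2 in all, both on a C57BL/6 and Foxp3DTRgfp background, so every mouse carried the reporter allele of Foxp3. Nrn1 encodes neuritin, a small protein held at the cell surface by a lipid anchor. The title of the Nrn1+/- library calls it wild type, so the comparison is between cells with 1 intact copy of Nrn1 and cells with none. The sources used here give neither the age and sex of the mice nor how many were pooled.

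Kruppel-like factors bind CACCC and GC-rich elements in promoters and differ mainly in what they recruit there. One branch (Klf2, Klf4, Klf6 and Klf7 among the members) mostly activates transcription, another (Klf3 and Klf12) represses through the corepressor CtBP, and the branch with Klf9, Klf10, Klf11 and Klf13 represses through the corepressor Sin3. In T cells Klf2 is best known for holding cells in quiescence and for driving the genes of lymph node entry and tissue egress. T cell receptor and PI3K signalling lower Klf2, whereas FOXO1 and the ERK5 and MEF2 axis raise it. Klf10 is a target of TGF-beta signalling and has been tied to regulatory T cell function.

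The unit is FPKM, a fragment number divided by transcript length and by the depth of the library. Nrn1, the targeted gene, stood at 66.5 FPKM in the heterozygous library and at 4.62 FPKM in the null library. From the spacing of low values, 1 fragment on 1 kb of transcript was worth 0.0194 FPKM in the heterozygous library and 0.0256 FPKM in the null library. Fragment numbers below come from these steps, and the 95% intervals are exact (Poisson for a level, Clopper-Pearson for a ratio). They cover counting error only, and copies made by PCR count in them as if they were separate molecules. With 1 library per genotype there is no spread between animals, no test and no p-value, so "higher" and "lower" describe these 2 libraries. All 10 markers of the sorted cells were present in both libraries, among them Foxp3 (257 and 195 FPKM), Il2ra, the gene of CD25 (601 and 564 FPKM), and Ctla4 (491 and 389 FPKM). On the deposited scale 8 of the 10 were lower in the null library, where 47.7% of all genes averaging 1 FPKM or more were. Cd44, a gene of the sort gate (62.4 and 80.5 FPKM), and Prdm1 (14.3 and 15.3 FPKM) were higher.

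The promoters of the 4 members with the most negative log2 ratios after adding 1 FPKM are shown first, since the elements that these factors bind also occur near starts of their own genes. The promoter table used here, from RefSeq (GRCm38.p6), gave a window for 9 of the 10 members, and that of Klf10 was not analysed here. Each window runs over the 250 bases before the RefSeq start, 5′ to 3′ on the gene's strand. The RefSeq start can lie inside the gene coordinates given further below. The Klf7 and Klf12 windows lie wholly within those coordinates, and the Klf2, Klf3, Klf6 and Klf11 windows lie partly within them. Klf2 lies at chr8:72318812-72319061 (plus strand), Klf3 at chr5:64803271-64803520 (plus strand), Klf4 at chr4:55532476-55532725 (minus strand) and Klf7 at chr1:64121390-64121639 (minus strand). Capitals mark CACCC or GGGTG (its other strand), the GC box GGGCGG or CCGCCC, and the MEF2 consensus.
Klf2: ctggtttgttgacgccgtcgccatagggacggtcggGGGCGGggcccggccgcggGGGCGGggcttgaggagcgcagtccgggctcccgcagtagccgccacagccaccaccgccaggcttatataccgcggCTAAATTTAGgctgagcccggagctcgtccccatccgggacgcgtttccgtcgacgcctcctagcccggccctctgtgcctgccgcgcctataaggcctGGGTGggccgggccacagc
Klf3: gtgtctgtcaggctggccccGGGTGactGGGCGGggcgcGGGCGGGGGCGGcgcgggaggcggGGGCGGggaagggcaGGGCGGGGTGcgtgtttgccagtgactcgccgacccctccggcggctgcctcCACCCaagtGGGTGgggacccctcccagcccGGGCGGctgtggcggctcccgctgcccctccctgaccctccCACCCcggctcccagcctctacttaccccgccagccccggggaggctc
Klf4: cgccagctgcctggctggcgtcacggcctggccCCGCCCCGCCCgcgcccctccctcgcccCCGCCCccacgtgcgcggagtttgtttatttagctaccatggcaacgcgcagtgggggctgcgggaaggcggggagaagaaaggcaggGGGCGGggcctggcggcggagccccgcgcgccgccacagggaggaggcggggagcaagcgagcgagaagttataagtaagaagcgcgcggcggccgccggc
Klf7: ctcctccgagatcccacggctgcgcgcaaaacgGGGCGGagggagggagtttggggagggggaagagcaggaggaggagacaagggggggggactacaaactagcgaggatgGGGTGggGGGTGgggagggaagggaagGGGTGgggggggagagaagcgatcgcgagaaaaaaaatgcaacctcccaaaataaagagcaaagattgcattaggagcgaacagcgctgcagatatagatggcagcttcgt

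The 4 windows are rich in G and C, from 59.2% in Klf7 to 78.4% in Klf3. The 9 promoters had a median GC content of 71.2% (from 48.0% in Klf12 to 78.4%), against a median of 52.4% over all 32851 promoters of the table. A GC box on either strand was present in 7 of the 9, against 32.7% of all promoters, and CACCC on either strand in 6 of the 9, against 52.0%. The Klf3 window held 5 CACCC and 6 GC box matches, which share bases where they abut, while the Klf4 window held 4 GC boxes and no CACCC. The Klf2 window was the one member promoter with a match to the MEF2 consensus, beginning at position -118 relative to the start, where 2.92% of all promoters have such a match. TGTTTAC or GTAAACA, the core that FOXO factors bind, was found in the Klf9 window alone among the 9, against 3.17% of all promoters. A match describes the letters of the window, not binding.

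The members spanned a 102-fold range of level in the heterozygous library, and the order from highest to lowest was the same in both libraries: Klf2, Klf6, Klf13, Klf3, Klf10, Klf9, Klf7, Klf4, Klf11 and Klf12. Klf2 alone made up 36.8% of the summed FPKM of the 10 genes in the heterozygous library and 32.0% in the null library. Neighbours in this order had separate counting intervals, apart from Klf9 and Klf7 in the heterozygous library (6.05 and 5.96 FPKM) and Klf4 and Klf11 in the null library (1.51 and 1.27 FPKM). The spread of each level between animals is unknown, so the order holds for these libraries.

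**Figure D1:**
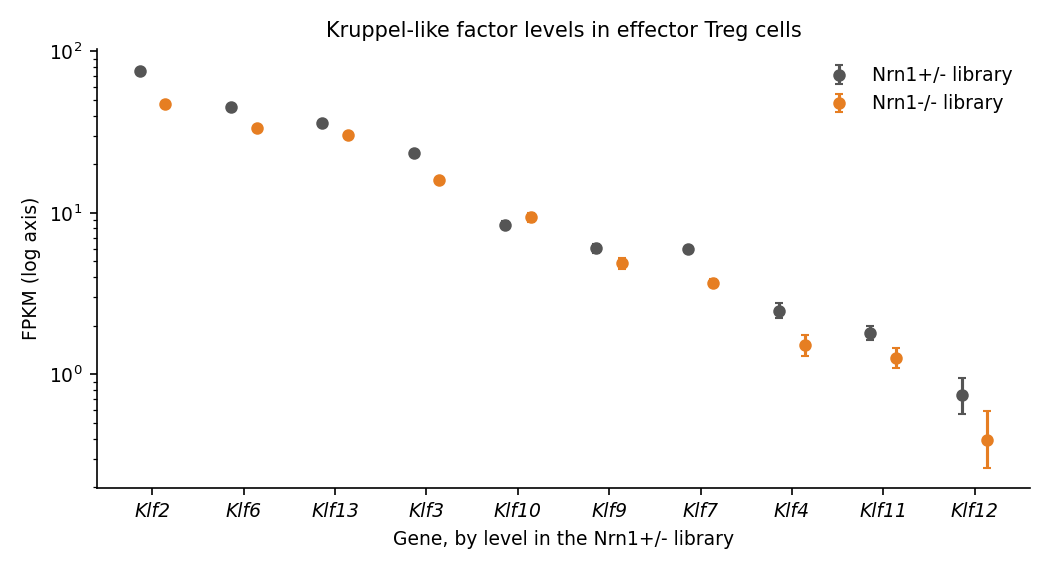
FPKM (log axis) of the 10 genes in the heterozygous library (grey) and the null library (orange), 1 library each, with exact 95% Poisson counting intervals as bars. The null value is below the heterozygous value for 9 of the 10 genes and above it for Klf10, and the order of the genes is the same in both libraries.

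Of the 10 genes, 9 were lower in the null library and 1, Klf10, was higher. Their summed level was 206 FPKM in the heterozygous library and 148 FPKM in the null library, 1.39-fold lower, and without Klf2 it was 130.3 and 101 FPKM. In bulk RNA, fewer cells expressing a gene and less RNA per cell cannot be told apart. Differences were put on a log2 scale after adding 1 FPKM to each value, which understates the difference of low genes, and only genes whose 2 values averaged 1 FPKM or more were compared. This left 12344 genes and 9 of the 10 members, Klf12 being below that level. Of the 9, 8 were lower, where 47.7% of all genes compared and 45.7% of the 10695 protein-coding ones were lower. This background varied with level. Under a mean of 10 FPKM, 4 of 5 members and 56.4% of all genes compared were lower. At 10 FPKM and over, 4 of 4 members and 42.3% of all genes compared were lower. Klf2 alone was at least 1.5-fold lower on that scale, 1 of 9 members, where 5.27% of all genes and 3.69% of protein-coding genes were. No member was at least 1.5-fold higher, where 7.50% of all genes and 7.01% of protein-coding genes were. The median log2 ratio of the 9 was -0.42 against 0.02 for all genes, so most members lay lower by less than 1.5-fold on that scale.

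**Figure D2:**
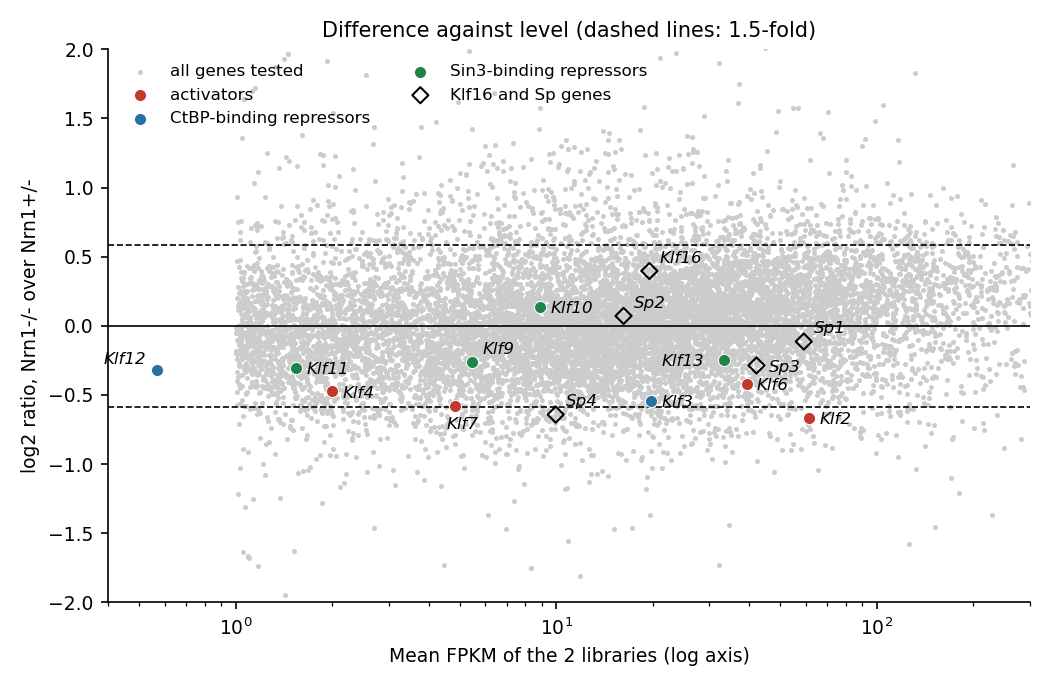
The log2 ratio (Nrn1-/- over Nrn1+/-, after adding 1 FPKM) against the mean FPKM of both libraries (log axis). Grey points are the genes compared, coloured points are the members by branch and open diamonds are Klf16 and the Sp genes; 413 of the 12344 genes lie outside the drawn range. Klf2 is the one member below the lower dashed line of 1.5-fold, and Klf7 lies just above it.

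Among the activating branch, all 4 members were lower, by 1.35-fold to 1.65-fold in FPKM. Klf2 (ENSMUSG00000055148.7, GRCm38 chromosome 8, 72319033 to 72321656, plus strand, 3 exons, 1 annotated transcript), the quiescence and trafficking factor, stood at 75.7 FPKM in the heterozygous library and 47.4 FPKM in the null library. These values correspond to 6429 and 3049 fragments. The null level was 1.60-fold lower (95% counting interval 1.53 to 1.67), a log2 ratio of -0.67. Among protein-coding genes ranked by level, Klf2 was number 1314 in the heterozygous library and number 2459 in the null library. No annotated gene with a deposited value overlaps it, and with a single transcript its fragment number does not depend on a choice of isoform.

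Klf6 (chromosome 13, 5861482 to 5870394, plus strand), a factor induced early in activation and injury, was the second most abundant member at 45.0 and 33.4 FPKM. That difference was 1.35-fold (counting interval 1.30 to 1.40), the smallest of the activating branch. Klf7 (chromosome 1, 64029447 to 64122282, minus strand), studied mostly in neurons and lymphoid progenitors, stood at 5.96 and 3.66 FPKM, 1.63-fold lower (1.51 to 1.75). Adding 1 FPKM brought its log2 ratio to -0.58, just short of the 1.5-fold line. Klf4 (chromosome 4, 55527143 to 55532466, minus strand), an antiproliferative factor and reprogramming gene, was low at 2.48 and 1.51 FPKM, from 362 and 167 fragments. Its FPKM ratio was 1.65-fold lower (1.36 to 1.99) and its log2 ratio -0.47. Klf2 and Klf4 kept nearly the same proportion to each other, 30.5 to 1 in the heterozygous library and 31.4 to 1 in the null library. Such proportions within a library do not depend on how the libraries were scaled.

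Both CtBP-binding repressors among the members were lower. Klf3 (chromosome 5, 64803388 to 64832901, plus strand), which can occupy the same CACCC elements as activating members, stood at 23.5 and 15.9 FPKM. It was 1.48-fold lower (1.42 to 1.55), with a log2 ratio of -0.54. The proportion of Klf2 to Klf3 was 3.22 in the heterozygous library and 2.99 in the null library. Klf12 (chromosome 14, 99870632 to 100284679, minus strand), first described as a repressor of the AP-2 alpha gene, was the least abundant member at 0.743 and 0.394 FPKM. With about 63 and 26 fragments its 1.88-fold lower value carried a counting interval of 1.15 to 3.02, and it did not reach the level at which genes were compared.

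Of the 4 members of the Sin3-binding branch, 3 were lower and 1 was higher as deposited, and 4 were lower at a sum of 1000000. Klf13 (chromosome 7, 63886351 to 63938915, minus strand), known in T cells as a late activator of the chemokine gene Ccl5, stood at 36.2 and 30.4 FPKM, 1.19-fold lower (1.16 to 1.23). Klf9 (chromosome 19, 23141226 to 23168134, plus strand), a glucocorticoid-induced factor, was at 6.05 and 4.87 FPKM, 1.24-fold lower (1.12 to 1.38). Klf11 (chromosome 12, 24651274 to 24662789, plus strand), a TGF-beta-inducible factor closely related to Klf10, was at 1.80 and 1.27 FPKM, 1.42-fold lower (1.19 to 1.71). Klf10 (chromosome 15, 38291463 to 38300706, minus strand) was the exception at 8.43 and 9.39 FPKM, 1.11-fold higher (1.02 to 1.21), with a log2 ratio of 0.14 that became -0.13 once the FPKM values of each library were set to add up to 1000000. Klf10 and Klf11 therefore stood at a proportion of 4.68 in the heterozygous library and 7.40 in the null library. The proportion of Klf2 to Klf10 was 8.98 and 5.05.

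By branch, the summed level was 129 and 85.9 FPKM for the 4 activating genes, 24.3 and 16.3 FPKM for the 2 CtBP-binding genes and 52.5 and 45.9 FPKM for the 4 Sin3-binding genes. The share of the activating genes in the summed FPKM of the members was 62.7% in the heterozygous library and 58.0% in the null library, and that of the Sin3-binding genes was 25.5% and 31.0%. Median log2 ratios were -0.53, -0.43 and -0.26 in the same order. The CtBP-binding median includes Klf12, which was below the level at which genes were compared. After adding 0.1 FPKM instead of 1, Klf3 and Klf12 had log2 ratios of -0.57 and -0.77. Those of the activating genes then ran from -0.43 to -0.69. The assignment to branches follows the known biochemistry of the family, and no test of a difference between branches was possible.

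The direction of the members depended little on scaling, but the number beyond 1.5-fold did. Upper-quartile scaling, an equal protein-coding sum and a sum of 1000000 shifted the median log2 ratio of all genes by -0.08, -0.11 and -0.27. The members' median lay 0.44 below that of all genes as deposited, and 0.45, 0.45 and 0.46 below it with these scalings. Each of them multiplies all values of a library by the same factor, so they could hardly change this distance. After adding 0.1 or 5 FPKM instead of 1, the members' median lay 0.50 and 0.24 below that of all genes. At a sum of 1000000, 17.6% of all genes were at least 1.5-fold lower and 3.27% at least 1.5-fold higher, so the 5 members then beyond 1.5-fold lower (Klf2, Klf3, Klf4, Klf6 and Klf7) stand against a larger background.

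**Figure D3:**
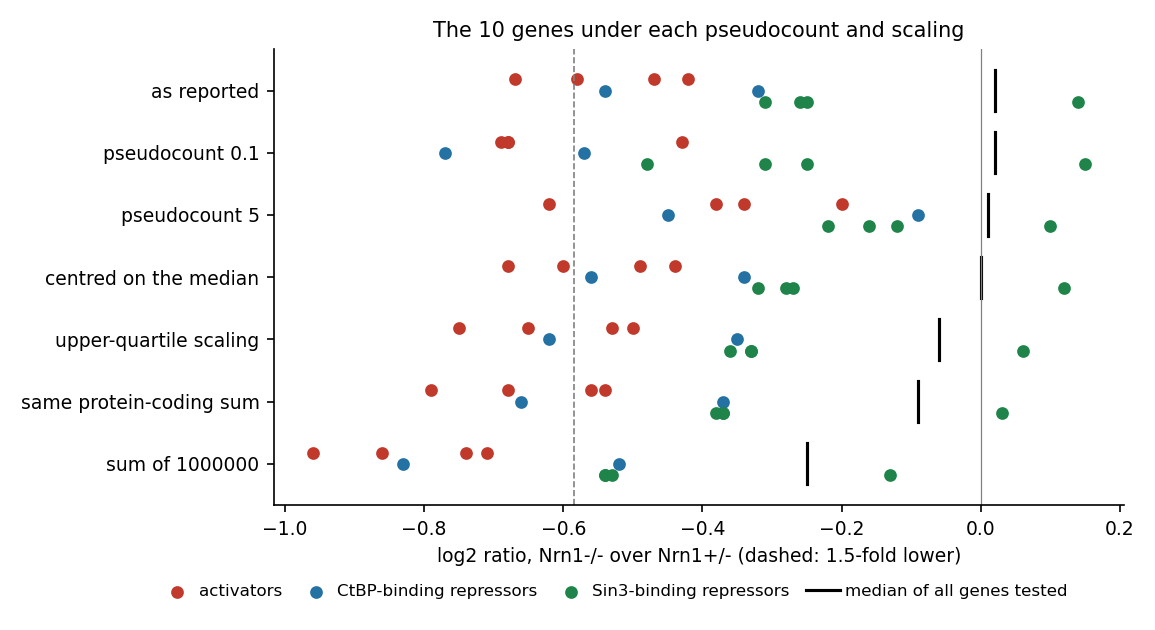
The log2 ratio of each of the 10 genes under 7 settings, coloured by branch, with the median of all genes compared as a black bar and 1.5-fold lower as a dashed line. With the scalings, the points and the black bar move left together from the deposited scale to the sum of 1000000. With pseudocounts of 0.1 and 5 the points move while the bar hardly does. The green point farthest to the right, Klf10, goes from 0.14 as deposited to -0.13 at a sum of 1000000.

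Overlapping annotation bears on 2 of the lower members. The sources used here do not state that the library or the counting kept strand, and without strand the fragments of genes on opposite strands cannot be told apart. Gm26649 (chromosome 1, 64029463 to 64032927, plus strand), a noncoding gene opposite the end of Klf7, was listed at 4.84 and 2.95 FPKM, 1.64-fold lower beside the 1.63-fold of Klf7. C230096K16Rik (chromosome 5, 64804014 to 64805735), an unclassified transcript on the same strand within Klf3, was listed at 1.48 and 0.842 FPKM, and Gm20033, which overlaps the start of Klf3 from the opposite strand, at 2 and 1.71 FPKM. How far these rows share fragments with Klf3 and Klf7 was not tested. The genes that overlap Klf9, Klf12 and Klf13 were listed at most at 0.202 FPKM. The other 5 members have no overlapping gene among the annotated genes with a deposited value, the only ones searched.

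The rest of the family was mostly silent or scarce, apart from Klf16. Klf16, a Sin3-binding member close to Klf13 and the one further Kruppel-like gene that averaged 1 FPKM or more, stood at 16.7 and 22.3 FPKM. Its log2 ratio of 0.40 was 0.12 at a sum of 1000000, and the proportion of Klf2 to Klf16 was 4.53 in the heterozygous library and 2.12 in the null library. Klf8, a CtBP-binding repressor like Klf3 and Klf12, was higher in the null library as deposited, at 0.660 and 0.813 FPKM. It was below the level at which genes were compared, and no counting interval was computed for it. Klf1, the erythroid member, was at 0.0867 and 0.151 FPKM, and Klf5, an epithelial member, at 0.0127 and 0.0495 FPKM. Klf14, Klf15 and Klf17 were listed at 0 in both libraries. Of the related Sp factors, which bind GC boxes, Sp4 was at 12.3 and 7.55 FPKM, 1.63-fold lower, Sp3 at 46.4 and 37.8 FPKM, Sp1 at 61.5 and 56.8 FPKM and Sp2 at 15.8 and 16.6 FPKM. Of these 4, 3 were lower as deposited, where 47.7% of all genes compared were lower. With upper-quartile scaling or at a sum of 1000000 there were 4 lower, where 56.5% and 75.6% of all genes were. With these 2 scalings Sp2 had log2 ratios of -0.01 and -0.21.

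Genes upstream of Klf2 differed little. Of 17 regulators compared, 13 were lower and 4 higher, none by 1.5-fold, with a median log2 ratio of -0.20. Of all genes compared, 47.7% were lower. The largest ratios were those of Akt1, a kinase that inactivates FOXO factors (73.5 and 104 FPKM, log2 ratio 0.49), and Foxo4 (15.6 and 11.2 FPKM, -0.44). Among genes downstream or linked in trafficking, 8 of 9 were lower, against the same 47.7%, with a median of -0.34. Il7r, the receptor for interleukin 7, was at 20.4 and 13.2 FPKM, and S1pr1, the egress receptor that Klf2 activates, at 41.5 and 27.9 FPKM. Cd69, whose protein removes S1pr1 from the surface, was lower as well, at 84.5 and 62.3 FPKM.

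Partners of the repressing branches were balanced. Of 14 corepressor and coactivator genes 5 were lower and 9 higher, with a median of 0.05, where 47.7% of all genes compared were lower. At a sum of 1000000 there were 12 lower, where 75.6% of all genes compared were. Kat2b, a histone acetyltransferase, was at 25.5 and 16.0 FPKM and was the one gene beyond 1.5-fold after adding 1 FPKM. Crebbp, another acetyltransferase, was at 15.9 and 11.3 FPKM, and Ctbp2 was scarce at 0.821 and 1.5 FPKM. The CtBP gene mainly expressed was Ctbp1, at 135 and 155 FPKM, with a log2 ratio of 0.20 that was -0.09 at a sum of 1000000. Sin3a stood at 33.2 and 33.7 FPKM, with a log2 ratio of 0.02 that was -0.06 with upper-quartile scaling.

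The signals that induce single members were examined as well. As deposited, 47.7% of all genes compared were lower. Of 12 TGF-beta and SMAD genes, whose pathway induces Klf10 and Klf11, 10 were lower with a median of -0.21. Tgfbr3, a coreceptor, was at 2.78 and 4.84 FPKM, Skil, an inhibitor of SMAD signalling, at 60.8 and 43.1 FPKM, and Tgfbr2 at 30.3 and 21.9 FPKM. Of 6 glucocorticoid response genes, the context of Klf9, 5 were lower with a median of -0.28. Tsc22d3, the glucocorticoid-induced leucine zipper gene, was at 24.7 and 12.4 FPKM, Dusp1 at 24.9 and 16.7 FPKM and Fkbp5, another target, at 24.2 and 36.1 FPKM. Of 14 early response genes, whose class includes Klf4, Klf6 and Klf10 in many cells, 6 were lower and 8 higher with a median of 0.03, and at a sum of 1000000, where 75.6% of all genes were lower, there were 14 lower of 15. Jun was at 86.1 and 60.2 FPKM, Jund at 82.3 and 108 FPKM and Fosl2 at 18.3 and 14.9 FPKM.

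Cell division genes lay on the other side. All 12 proliferation genes (Mki67, Top2a, Ccnb1, Cdk1, Ccna2, Plk1, Birc5, Pcna, Mcm2, Mcm5, Rrm2 and Tyms) stood above the 1.5-fold line in the null library. Of all genes compared, 7.50% were at least 1.5-fold higher. The median log2 ratio of the 12 genes was 1.26, and they ran from Pcna (236 and 389 FPKM) to Ccnb1 (17.7 and 56.2 FPKM). At a sum of 1000000 all were still higher, Pcna with a log2 ratio of 0.43. Of 12 cell cycle inhibitors 9 were lower, against 47.7% of all genes compared, with a median of -0.37. Cdkn1b, the inhibitor p27, stood at 66.2 and 35.0 FPKM, Ccng2 at 23.3 and 13.0 FPKM and Btg1, an antiproliferative gene, at 110.3 and 71.4 FPKM, while Cdkn2a was at 5.77 and 9.47 FPKM. Whether the share of dividing cells has a part in the lower Klf levels was not tested.

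**Figure D4:**
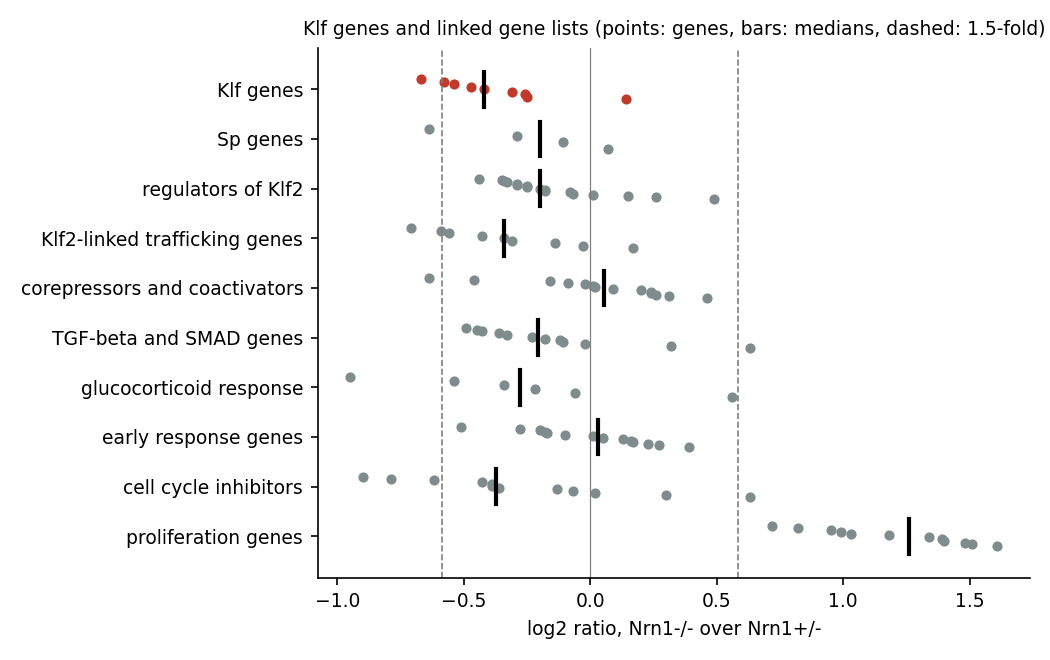
The log2 ratio (Nrn1-/- over Nrn1+/-) of each gene compared, for the 9 Klf members (red) and the genes of the linked lists (grey), with the median of each list as a black bar and 1.5-fold as dashed lines. The Klf median is -0.42, the lowest of the lists drawn, and the proliferation genes all lie beyond the upper dashed line with a median of 1.26.

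Several members are abundant in other cells, Klf4 in monocytes and Klf2 and Klf4 in endothelium, so markers of those cells were read in the same libraries. The 6 endothelial markers summed to 0.0455 FPKM in the heterozygous library and 0.135 FPKM in the null library, none above 0.0470 FPKM, with Cldn5 at 0 in both. The 7 monocyte and macrophage markers summed to 7.99 and 6.28 FPKM, nearly all of it Cd68 (7.09 and 5.56 FPKM), while Csf1r was at 0.0260 and 0 FPKM and Lyz2 at 0.599 and 0.448 FPKM. Erythroid markers summed to 0.646 and 0.418 FPKM. Of 7 B cell markers 6 were higher in the null library, where 47.7% of all genes compared were lower. Only 2 of the 7 averaged 1 FPKM or more. Cd79a was at 0.553 and 1.16 FPKM, but the list's sum of 235 and 188 FPKM was set by Ighm (229 and 180 FPKM). Neutrophil markers summed to 0.12 and 0.149 FPKM, with S100a8 and S100a9 at 0 in both, dendritic cell markers to 2.96 and 2.38 FPKM, with Siglech and Clec9a at 0, NK cell markers to 5.14 and 5.04 FPKM and CD8 T cell markers to 4.92 and 3.93 FPKM. Fibroblast and epithelial markers summed to 16.5 and 12.7 FPKM, of which Epcam gave 16.3 and 12.2 FPKM. The part of these cells in the Klf values was not tested.

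By distance between log2 values over the 2 libraries, the protein-coding genes nearest to Klf2 were Tmem64 (77.8 and 45.9 FPKM, distance 0.060), Ccl20 (75.9 and 44.4 FPKM, 0.092) and Ift80 (71.0 and 48.6 FPKM, 0.099). Those nearest to Klf10 were Trmt2b, Rnf41 and Abhd10, within 0.010. With 2 libraries this likeness means only that level and ratio are alike.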

How the data were processed

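Poly(A) RNA of sorted effector regulatory T cells was sequenced in 1 Nrn1+/- and 1 Nrn1-/- library, grouped by the genotype labels. The deposited values are FPKM per gene, computed by the authors. The submitters' processing notes list FastQC, TopHat, Cuffdiff and Cuffnorm, with no version, and the mm10 and GRCm38 builds. The sources used here state neither the annotation nor a scaling between libraries, so other scalings were tried.

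Rows sharing a symbol were summed (46511 rows, 46398 symbols). Coordinates came from GENCODE M21 (GRCm38), to which 46000 identifiers matched. The step of 1 fragment was fitted on low values of genes with 1 transcript, using length less 200 bases. Values of 1745 and 1490 genes lay within 0.1 of whole multiples for 96.7% and 97.2%, against 20% for evenly spread values. Fragments of a member used its longest coding transcript within the deposited locus, and a shorter isoform would mean fewer fragments and wider intervals. Ratios used a pseudocount of 1 FPKM, a mean of at least 1 FPKM and a 1.5-fold threshold. Folds quoted with FPKM carry no pseudocount. The calculation was tested on simulated data. Work used Python 3.11.15, pandas 2.3.3, NumPy 2.4.6 and SciPy 1.17.1.

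The members, branches and gene lists were chosen with earlier results of these data known. Named genes were all members, Nrn1, Klf16 and the Sp genes averaging 1 FPKM or more, and, per list, those beyond 1.5-fold or else the largest ratios up to 3. For the members with the most negative and the most positive log2 ratio (Klf2 and Klf10 at a pseudocount of 1), the 3 nearest protein-coding genes were named as well. A few genes that this rule names are not reported here. Cd69, Ctbp1, Sin3a, the Kruppel-like genes below 1 FPKM, the overlapping genes and the markers given with values were named in addition, after their values were seen. Proportions between members and the promoter letters to search were also chosen after the values were seen.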

Additional observations from a re-analysis of the deposited data

How the results depend on the processing

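Of the 9 members compared, 8 were lower in the Nrn1-/- library under pseudocounts of 0.1 and 5, centring, upper-quartile scaling and an equal protein-coding sum, and 9 at a sum of 1000000. Of all genes compared, 47.7% were lower with either pseudocount, 50% after centring, 56.5% with upper-quartile scaling, 61% with an equal protein-coding sum and 75.6% at a sum of 1000000. With no filter on low values 9 of 10 members were lower. The number at least 1.5-fold lower was 1 as reported, 3 with a pseudocount of 0.1 (Klf2, Klf4 and Klf7), 3 with upper-quartile scaling or an equal protein-coding sum (Klf2, Klf3 and Klf7), 2 after centring (Klf2 and Klf7) and 5 at a sum of 1000000. The share of all genes at least 1.5-fold lower was 7.87% with a pseudocount of 0.1, 7.25% with upper-quartile scaling, 8.84% with an equal protein-coding sum, 5.78% after centring and 17.6% at a sum of 1000000. The members' median log2 ratio, -0.42 as reported, was -0.48 and -0.22 with pseudocounts of 0.1 and 5, -0.50 with upper-quartile scaling, -0.54 with an equal protein-coding sum, -0.71 at a sum of 1000000, -0.44 after centring and -0.37 with no filter. Klf10 reversed at a sum of 1000000, with a log2 ratio of -0.13, where the median log2 ratio of all genes shifted by -0.27. With an equal protein-coding sum it stayed at 0.03. The deposited FPKM summed to 645876 in the heterozygous and 790935 in the null library over all genes. Over protein-coding genes the sums were 593035 and 647544. Of 60 member values under 6 alternatives, 1 reversed, that of Klf10, and the others kept their direction. Among the lists, lower corepressor and coactivator genes went from 5 to 8 with an equal protein-coding sum and 12 at a sum of 1000000, lower early response genes from 6 to 14 at a sum of 1000000, and lower Sp genes from 3 to 5 with no filter. No paired analysis was possible because each genotype has 1 library, and for the same reason no library could be left out. Counting error limits Klf12 most, with about 63 and 26 fragments.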
